A study of Danio rerio with 12 samples.

Results

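The comparison was between clusters of dorsal forerunner cells (DFCs) depleted of Vgll4l and control clusters, over 8 of the 12 libraries of the study and 17609 of 31953 genes. A gene was tested when its mean over the 12 libraries reached 1 normalized count, and 9964 genes were at 0 in every library. Every cluster was dissected at 90% epiboly from zebrafish embryos of the Tg(sox17:GFP) line, which carries GFP under sox17 regulatory sequence and so marks DFCs. Control embryos received 8 ng of a standard morpholino at the 1-cell stage and Vgll4l morphants 4 ng of a morpholino against the splicing of vgll4l transcripts, so the total morpholino dose differed between the groups compared. The remaining 4 libraries, from embryos given Yap and Taz morpholinos together at 4 ng each, entered the fit of the spread. They are quoted beside a few genes, mostly ones where the knockdowns differed, and compared directly since both knockdowns share the control libraries. Some other falls below were shared: tet2, gli3, HECW1 and fgf1a had means of 0.909, 0.729, 0.710 and 0 normalized counts after Yap/Taz knockdown. A change below is therefore not to be read as particular to Vgll4l knockdown unless the Yap/Taz level is given. Where that level is given, it may itself differ from control. The labels name no mutant allele in any group. The methods call the 4 libraries of each group biological replicates, while the labels name no embryo, clutch or injection, so p-values measure the spread between these libraries, which may be technical. Control replicates 1 and 2, control replicates 3 and 4, and Vgll4l replicates 3 and 4 differed by less than 2 times counting noise. So did Yap/Taz replicates 1 and 2, 2 and 3, and 3 and 4. Whether such pairs are repeats of 1 cluster or pool cannot be told from the labels. If they were, the groups would hold 2 control, 3 Vgll4l and 1 Yap/Taz values. The n of 4, the SDs and the p-values below, those of Vgll4l minus Yap/Taz included, would then overstate the replication.

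DFCs are a small group of cells at the dorsal margin of the gastrula that migrate ahead of the embryonic shield, cluster, and form the epithelium of Kupffer's vesicle, the left-right organizer of zebrafish. Each of its cells grows a motile cilium, and the flow these cilia drive in the vesicle lumen breaks left-right symmetry. Tead proteins bind DNA but need cofactors to change transcription. Yap and Taz are cofactors that the Hippo kinases hold back, and Vgll4 proteins bind Teads through their Tondu domains and compete with Yap in several mammalian tissues.

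The target itself came first. vgll4l (ENSDARG00000068409) had 7266, 7057, 6759.6 and 6694 normalized counts in the 4 control libraries and 1033, 1107, 1090.5 and 1016 in the 4 Vgll4l libraries. The groups did not overlap, and the Vgll4l mean was 15.3% of the control mean (log2 fold change -2.71 with a standard error of 0.04, adjusted p = 4.5e-15 by limma with Benjamini-Hochberg adjustment over all genes tested). A normalized count is the reads of a gene divided by a size factor of its library. A splice morpholino acts on the processing of the transcript, so this level is no measure of how much Vgll4l protein was left. vgll4l was also lower after Yap/Taz knockdown, where no Vgll4l morpholino was given, at 1574, 1677, 1615 and 1556 normalized counts. Its log2 fold change against control was -2.11 there (adjusted p = 5.0e-14), and Vgll4l minus Yap/Taz was -0.60 (adjusted p = 7.6e-09). How much of the fall came from the Vgll4l morpholino itself was not tested. The fold and p of every gene below come from the same fit, and "rose" or "fell" is kept for genes with an adjusted p under 0.05 and a log2 fold change of at least 1 in size.

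The control libraries held 4487894 to 6148871 reads and the Vgll4l libraries 8698990 to 11235726. By that rule 71.4% of the 17609 genes tested changed, 5368 (30.5%) rising and 7202 (40.9%) falling, with a median log2 fold change of -0.26. The median was -0.09 with TMM scaling and -0.47 when libraries were scaled to their total reads, so each count of list members below is to be read against this background. The 4 libraries of the groups did not overlap in 79.2% of genes, with the Vgll4l libraries all higher in 35.0% and all lower in 44.2%. Losses were steep: 2064 genes fell by at least 5 on the log2 scale and 984 rose by as much. Another 2311 genes had an adjusted p under 0.05 with a log2 fold change under 1 in size. Calls were most frequent at intermediate levels, with 86.2% of genes between 10 and 100 normalized counts and 54.0% of genes at 1000 or more. Among the latter 455 rose and 228 fell, whereas between 10 and 100 more genes fell (52.9%) than rose (33.2%).

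Vgll4l replicate 2 stood apart from the other knockdown libraries. At a common depth of 4487894 reads, 15339.9 to 15647.6 genes were expected with at least 1 read in the control libraries. The expected number was 12949.3, 12889.2 and 13031.2 in Vgll4l replicates 1, 3 and 4 and 15334.1 in replicate 2. Of the genes with a control mean of at least 500, 156 had a mean over replicates 1, 3 and 4 under 1% of it. In these genes the median level was 0.234, 0.214 and 0.326% of the control mean in replicates 1, 3 and 4 and 2.09% in replicate 2, which was above the other 3 libraries in 154 of the 156. Of 271 genes with a control mean of at least 100 and no read in replicates 1, 3 and 4, 240 had reads in replicate 2, and 31 were at 0 in all 4 libraries. Both sets of genes were chosen for low levels in replicates 1, 3 and 4. Replicate 2 lying above them was thus partly set by that choice. No like choice leaving out another replicate was made. In the 59 genes that rose from under 1% of the Vgll4l mean to at least 500, replicate 2 was at a median of 81.6% of that mean and the other libraries at 101 to 109%. A source of this low, broad signal was not tested. Without replicate 2, 5311 genes rose and 7297 fell.

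**Figure D1:**
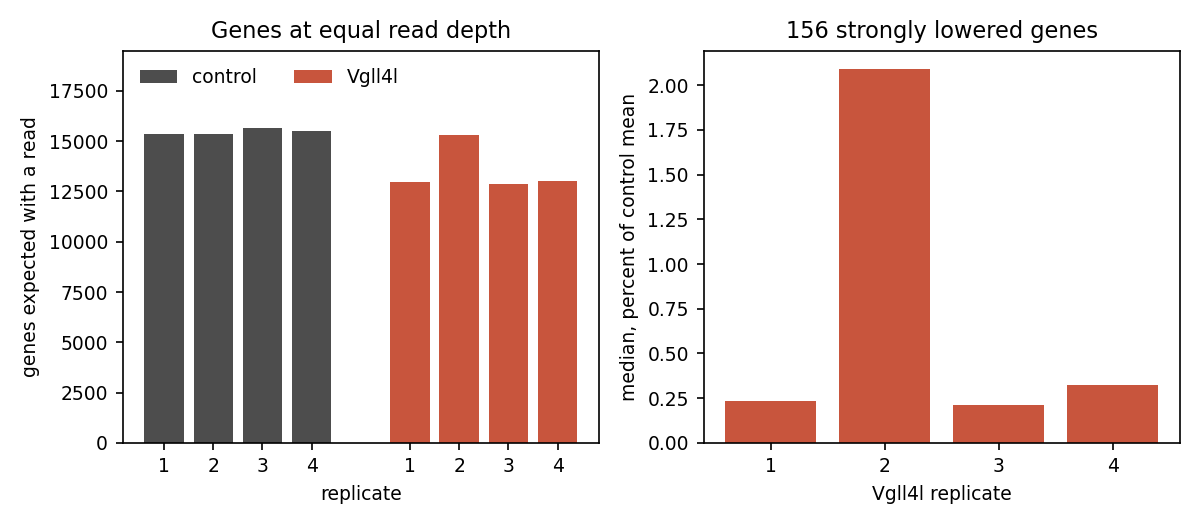
Bars on the left give the number of genes expected with a read at 4487894 reads for each control and Vgll4l library. Those on the right give, as percent of the control mean, the median level of 156 strongly lowered genes. These genes were chosen for a low mean over Vgll4l replicates 1, 3 and 4. Vgll4l replicate 2, at 15334.1 genes and 2.09%, differs from replicates 1, 3 and 4, at 12889.2 to 13031.2 genes and 0.214 to 0.326%.

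Most Hippo pathway genes fell. Of 17 kinases and regulators tested, 12 fell and 1 rose (70.6 and 5.88%, against 40.9 and 30.5% of all genes tested). Their median log2 fold change was -1.51. nf2b, which encodes a Merlin protein upstream of the Lats kinases, had 2963, 2861, 2628 and 2551 normalized counts in control clusters and 189, 262, 209 and 201 after Vgll4l knockdown. It was lower in all 4 libraries, with a log2 fold change of -3.68 (adjusted p = 2.7e-13). wwc1, the gene of the scaffold protein Kibra, had 206 ± 34.3 normalized counts in control clusters (mean ± SD, n = 4, as in all means below) and was at 0 in Vgll4l replicates 1, 3 and 4 and at 1.89 in replicate 2. mob1ba, which encodes a coactivator of Lats kinases, went from 796 ± 112 to 60.3 ± 12.4 (log2 fold change -3.71, adjusted p = 1.4e-11). The 1 member that rose was stk3, the gene of the Mst2 kinase, with 45.7 ± 3.59 in control clusters and 630.3 ± 46.5 after knockdown (log2 fold change 3.76, adjusted p = 3.6e-13).

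Among the 9 Tead and cofactor genes, 3 rose and 4 fell (33.3 and 44.4%, against 30.5 and 40.9% of all genes tested). tead1a and tead1b, 2 genes of Tead1, changed in opposite directions. tead1a had 89.0, 73.2, 56.4 and 77.0 normalized counts in control libraries and 1.53, 6.61, 0.977 and 0.922 in Vgll4l libraries (log2 fold change -4.66, adjusted p = 2.3e-08). tead1b had 0, 0, 2.25 and 0 and then 35.9, 52.9, 26.4 and 34.1 (log2 fold change 4.79, adjusted p = 1.4e-07). Neither gene overlapped between the groups, as was so for 79.2% of all genes tested, and both stayed under 100 normalized counts. tead3b did not pass, at 74.0 ± 18.96 and 54.4 ± 8.36. Its counterpart tead3a went from 0.381 ± 0.763 to 6.17 ± 4.05 and wwtr1, the gene of Taz, from 0 in all 4 control libraries to 2.37 ± 1.23, both called as rises of few reads that did not keep the fold threshold with a pseudocount of 10. vgll4b, another Vgll4 gene, fell from 21.7 ± 4.63 to 1.70 ± 1.26 (adjusted p = 1.8e-06), and vgll4a, under 18 normalized counts in every library, from 8.93 ± 6.60 to 0.725 ± 0.933, a call lost with a pseudocount of 10. yap1 was lower in every Vgll4l library, at 1442 ± 76.5 against 2250.5 ± 116, but its log2 fold change of -0.64 was under the threshold.

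Of 10 genes listed as Yap targets, 2 rose and 4 fell. cyr61, which encodes a secreted matrix protein and is a classical Yap target in mammals, had no read in any control library and 84.1, 56.6, 92.8 and 91.2 normalized counts in the Vgll4l libraries. It was at least 79.4-fold higher, taking 3 reads over the control group as the floor. f3a, which encodes a tissue factor, went the other way, from 183, 111, 116 and 98.3 to 0 in 3 Vgll4l libraries and 1.89 in replicate 2. fstb, a follistatin gene whose product binds Activin, had 338, 337, 275 and 233 in control clusters and was also at 0 in 3 Vgll4l libraries, with 3.78 in replicate 2. Of the 10, 4 were not called, and 20% rose and 40% fell against 30.5 and 40.9% of all genes.

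The transcription factors that define DFCs were lower but far from absent. sox32, which specifies endoderm and DFCs, had 27559, 27027, 27874 and 27686 normalized counts in the control libraries and 12878, 12497, 13412 and 13021 in the Vgll4l libraries. It kept 47.0% of the control level, a log2 fold change of -1.09 with a standard error of 0.02 (adjusted p = 4.8e-14). After Yap/Taz knockdown sox32 was at a like level, 12884 ± 193 (Vgll4l minus Yap/Taz 0.007 in log2 units, adjusted p = 0.79). sox17, its target and the gene behind the GFP reporter, fell to a like extent, from 18501, 19129, 17483 and 17446 to 8352, 8236, 9109 and 8817 (log2 fold change -1.07, adjusted p = 5.0e-12). With TMM scaling both log2 fold changes were -0.89 and -0.87 and no longer reached the threshold of 1. In bulk RNA of a dissected cluster, fewer DFCs and less RNA per DFC cannot be told apart. ta, the zebrafish Brachyury gene that DFCs need to form the vesicle, dropped further, from 29956, 28315, 25979 and 25387 to 8337, 7959, 8800.1 and 8269 (log2 fold change -1.71, adjusted p = 6.2e-13). tbx16, a T-box gene of the mesoderm and the DFCs, went from 5303 ± 657 to 2284 ± 71.6 (log2 fold change -1.21, adjusted p = 1.9e-09).

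foxj1a, the master regulator of motile cilia, had 23811, 23144, 21689 and 21541 normalized counts in control clusters and 4338, 4157, 4387 and 4316 after Vgll4l knockdown, 19.1% of the control mean (log2 fold change -2.39 with a standard error of 0.03, adjusted p = 1.5e-15). The loss was larger than that of sox32 and sox17 and nearly the same in all 4 libraries. foxj1a was also low after Yap/Taz knockdown, at 5206 ± 73.2 normalized counts. Its sister gene foxj1b had 288, 322, 242 and 227 and then 0, 2.83, 0 and 0.922. rfx2, which encodes a factor that acts with Foxj1 on ciliary genes, had 2608 ± 117 and 776 ± 46.3 (log2 fold change -1.75, adjusted p = 1.4e-12). rfx4, of the same family, appeared in the Vgll4l libraries at 193 ± 44.7 against 1.04 ± 1.44 in control clusters. noto, a homeobox gene of the notochord whose mouse counterpart acts in the node, was somewhat higher, at 5205 ± 111 against 3709.8 ± 112, with a log2 fold change of 0.49 under the threshold.

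Over the whole list of 20 DFC and vesicle transcription factors 8 rose and 11 fell, with a median log2 fold change of -1.08 (8 and 9 with TMM scaling). Rises and falls made up 40 and 55% of it, against 30.5 and 40.9% of all genes tested. The list took 1.54 to 1.58% of the normalized counts of a control library and 0.550 to 0.566% of a Vgll4l library. foxa3, a forkhead gene of endoderm and notochord, fell from 1526 ± 32.7 to 153 ± 75.3 (log2 fold change -3.42, adjusted p = 3.3e-09). Most members that rose were low in control clusters. tbx6, a T-box gene of the presomitic mesoderm in zebrafish, had 3.24, 1.53, 2.25 and 1.18 there and 509.7, 469, 507 and 536 after knockdown (log2 fold change 7.42, adjusted p = 6.5e-12). gata6, an endoderm and yolk syncytial layer factor, went from 308 ± 17.8 to 1837 ± 184 and mixl1, a Nodal-responsive homeobox gene, from 5.71 ± 5.84 to 91.8 ± 25.05. Markers of other tissues moved at the same time. The enveloping layer list took 0.652 to 0.689% of a control library and 4.18 to 4.71% of a Vgll4l library, the yolk syncytial layer list 0.541 to 0.563% and 0.942 to 1.01%, and the epidermal list 0.0263 to 0.0288% and 0.182 to 0.187%. Much of the yolk syncytial share in control clusters was stm, the starmaker gene of otoliths. It fell from 20797 ± 2046 to 4481 ± 227 normalized counts. In the epidermal list the ventral genes vox and ved reached 5057 ± 143 and 2793 ± 270 after knockdown. tp63, of epidermal precursors, was not called. These shares are therefore no measure of the amount of each tissue. The part of these tissues in the fall of the DFC genes was not tested.

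**Figure D2:**
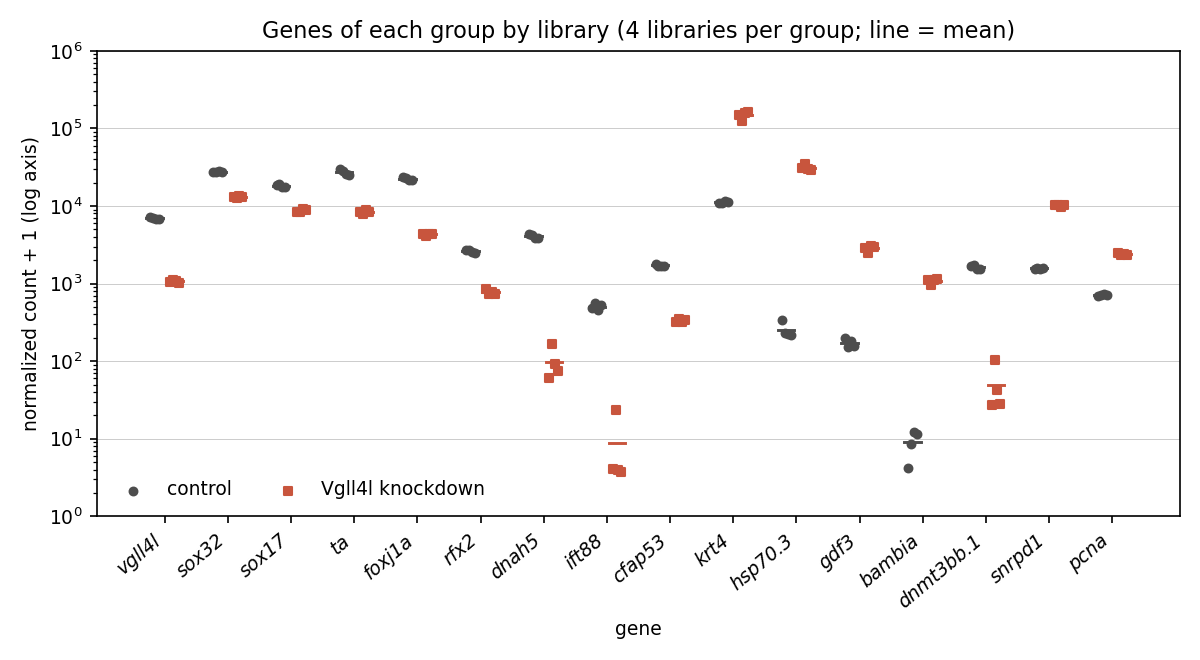
Each point is 1 library (control, circles; Vgll4l knockdown, squares) and each line the mean of 4, for 16 genes on a log axis of normalized count + 1. The 4 knockdown squares lie apart from the 4 control circles for every gene, with vgll4l, sox32, sox17, ta, foxj1a and rfx2 lower, krt4, hsp70.3 and bambia higher, and Vgll4l replicate 2 the highest knockdown square for dnah5, ift88 and dnmt3bb.1.

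Most genes of the ciliary axoneme fell. The outer dynein arm heavy chain dnah5 had 4339, 4265, 3812 and 3816 normalized counts in control clusters and 58.8, 167, 90.9 and 72.8 after Vgll4l knockdown, 2.40% of the control mean (log2 fold change -5.48 with a standard error of 0.22, adjusted p = 3.3e-11). The 4 knockdown libraries were all far below control, with replicate 2 the highest. dnah7, an inner arm heavy chain, had 1211, 1332, 1180.3 and 1094 and then 1.53, 19.8, 10.7 and 1.84 (log2 fold change -7.54, adjusted p = 7.3e-09). dnah9, another outer arm heavy chain gene, rose from 17.8, 29.0, 28.2 and 32.0 to 459, 386, 449 and 490.3 (log2 fold change 4.04, adjusted p = 2.6e-11), also without overlap. Of 13 genes with a dnah symbol, 11 fell and 1 rose (median log2 fold change -5.27, against -0.26 for all genes tested).

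Of 10 outer arm subunits 7 fell and 2 rose, and of 11 inner arm subunits 9 fell and 1 rose. Of 19 genes of dynein assembly and docking 15 fell and 0 rose, and of 23 genes of radial spokes, the central pair and the nexin link 20 fell and 0 rose. Falls made up 40.9% of all genes tested. lrrc6, a factor that preassembles dynein arms in the cytoplasm, had 1781, 1680.0, 1367 and 1582 in control libraries and 3.82, 36.8, 1.95 and 1.84 in Vgll4l libraries. drc3, of the nexin-dynein regulatory complex, had 685, 731, 625 and 598 and was at 0 in 3 Vgll4l libraries and at 10.4 in replicate 2 (log2 fold change -8.49, adjusted p = 3.2e-08). gas8, another subunit of that complex, kept 5.54% of its control level, 60.3 ± 26.0 against 1089 ± 64.1. RSPH1, a radial spoke head gene, had 651 ± 45.7 against 830.2 ± 46.7 normalized counts, with a log2 fold change of -0.35 under the threshold.

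Inner proteins of the doublet microtubules followed, with 16 of 20 falling and 2 rising (80 and 10%, against 40.9 and 30.5% of all genes tested). cfap45 had 1329, 1335, 1125 and 1147 normalized counts in control clusters and 0, 31.2, 2.93 and 1.84 after knockdown, and efhc2 had 853, 889.6, 908 and 873 and 1.53, 19.8, 0.977 and 1.84. In both genes replicate 2 held at least 10 times fewer counts than any control library and several times more than the other knockdown libraries. cfap53, which is needed for vesicle cilia in zebrafish and for laterality in humans, had 1763, 1698, 1699 and 1685 and 319, 350.3, 319.5 and 340.0, with replicate 2 close to the others (log2 fold change -2.36, adjusted p = 2.2e-13). The level left thus ranged within one structure from 19.4% of control in cfap53 to under 1% in cfap45 and efhc2.

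Intraflagellar transport, the traffic of motor-driven trains that builds the cilium, was lowered as broadly. Of 24 genes 20 fell and 1 rose (83.3 and 4.17%, against 40.9 and 30.5% of all genes tested). Their median log2 fold change was -4.00. ift88, a core subunit of the anterograde train, had 484, 552, 453 and 521 normalized counts in control clusters and 3.06, 22.7, 2.93 and 2.76 in Vgll4l morphants (log2 fold change -6.35, adjusted p = 9.0e-09). wdr35, of the retrograde train, had 578, 507, 540.0 and 506 and 1.53, 19.8, 3.91 and 7.37 (log2 fold change -6.29, adjusted p = 9.6e-09). In both genes replicate 2 was the highest knockdown library and still far below every control library. kif3b, a subunit of the kinesin motor of these trains, fell from 799.7 ± 46.1 to 23.2 ± 13.8, while it had 1032 ± 29.0 after Yap/Taz knockdown, and the difference, Vgll4l minus Yap/Taz, was -5.57 in log2 units (adjusted p = 1.4e-10). The 1 gene that rose was ift46, from 355 ± 48.7 to 824 ± 85.3, with a log2 fold change of 1.22 that became 0.93 when libraries were scaled to their total reads.

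At the base of the cilium, 10 of 12 genes of the BBSome and its chaperones fell and 1 rose, 17 of 21 transition zone genes fell and 1 rose, and 17 of 26 centriole and basal body genes fell and 6 rose. Over all genes tested 40.9% fell and 30.5% rose. bbs2, a BBSome subunit, had 309, 339, 257 and 289 in control libraries and 0.764, 6.61, 0 and 0 in Vgll4l libraries. mkks, which encodes a chaperonin-like protein for BBSome assembly, appeared at 117, 97.2, 135 and 144 from 0, 1.53, 1.13 and 1.18 (log2 fold change 6.05, adjusted p = 1.6e-09). These genes of one assembly were at opposite ends of the range. cc2d2a, which encodes a protein of the transition zone that gates the cilium, fell from 255 ± 20.3 to 1.64 ± 2.23. tmem107, a membrane protein of the same zone, was the member that rose, from 66.1 ± 15.7 to 976 ± 167 (log2 fold change 3.88, adjusted p = 5.6e-11).

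gmnc, the Geminin-family gene that triggers multiciliated cell fate in vertebrates, had 261, 288, 320.2 and 278 normalized counts in control clusters and was at 0 in 3 Vgll4l libraries, with 4.72 in replicate 2 (log2 fold change -7.54, adjusted p = 1.4e-08). cep97, a cap protein of the centriole, fell from 345 ± 36.9 to 4.06 ± 5.01. cenpj, which encodes a factor of centriole elongation, rose from 0.959 ± 0.663 to 197 ± 18.5, and tubd1, the delta-tubulin gene, from 0.578 ± 0.668 to 155 ± 31.3. Each of these 4 genes separated the groups without overlap, as did 79.2% of all genes tested. The inner arm list took 0.0627 to 0.0711% of a control library and 0.00423 to 0.00506% of a Vgll4l library, and intraflagellar transport 0.215 to 0.220% and 0.0387 to 0.0414%. The outer arm share did not fall, with 0.377 to 0.388% in control clusters and 0.408 to 0.431% after knockdown. Most of it was dynll1, a light chain that many other complexes use, which rose from 16103 ± 321 to 32803 ± 362, with a log2 fold change of 1.03 that became 0.74 when libraries were scaled to their total reads.

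Genes for the vesicle lumen were lowered less steeply. Of 27 tested 17 fell and 3 rose (median log2 fold change -1.67), and their share went from 0.598 to 0.626% of the counts to 0.184 to 0.193%. A large part of that share in control clusters was cdh2, which the neural list also holds. cldn5b, a claudin of tight junctions, had 372, 395, 454 and 458 normalized counts in control clusters and 0.764, 8.50, 0.977 and 0.922 after knockdown (log2 fold change -7.21, adjusted p = 1.8e-09). slc12a2, the sodium, potassium and chloride cotransporter of secreting epithelia, fell from 401 ± 38.2 to 11.5 ± 6.69 (adjusted p = 2.1e-09). cdh2, the gene of N-cadherin, had 18331, 18406, 16883 and 16760.3 and 4060.5, 4005, 4197 and 4142, 23.3% of the control mean (log2 fold change -2.10, adjusted p = 6.8e-15). atp6v1f, a subunit of the vacuolar proton pump, was one of the 3 that rose, from 540.2 ± 55.3 to 1654 ± 156 (log2 fold change 1.61, adjusted p = 3.2e-10). Among 36 integrin and laminin genes, receptors and components of the basement membrane, 19 fell and 8 rose (median log2 fold change -1.74). Of all genes tested 40.9% fell and 30.5% rose.

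Keratin genes of the enveloping layer rose together. krt4, one of the keratins of the outermost cell sheet of the embryo, had 11075, 11049, 11417 and 11286 normalized counts in control clusters and 150186, 123269.8, 158794 and 160916 in Vgll4l morphants (log2 fold change 3.72 with a standard error of 0.06, adjusted p = 1.0e-14). krt18 had 8132, 7894, 8124 and 7854 and 79730.1, 74012, 84091 and 83982 (log2 fold change 3.33), and krt8, its partner in simple epithelia, had 5707, 5209, 5636 and 5483 and 55422, 46818, 57164 and 58520.0 (log2 fold change 3.30). All 3 were lowest in replicate 2 among the Vgll4l libraries, at a level still at least 8 times that of any control library. Of 18 keratin genes tested 15 rose and 0 fell under each scaling, and together they took 0.458 to 0.505% of a control library and 3.92 to 4.45% of a Vgll4l library. A keratin gene near 0 in control clusters was tested only where another group was higher and could not be called a fall. The filter thus partly set this count. Over all genes tested 30.5% rose and 40.9% fell. Keratin genes are close copies of each other, and how the counting divided reads between them is uncertain. krt4 had 13412 ± 159.6 normalized counts after Yap/Taz knockdown, and the difference, Vgll4l minus Yap/Taz, was 3.46 in log2 units (adjusted p = 4.3e-14). krt18 rose after Yap/Taz knockdown too, to 19422 ± 236 (log2 fold change against control 1.28, adjusted p = 6.7e-13). krt8 was higher there at 10621 ± 133, with a log2 fold change of 0.95 under the threshold.

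The full enveloping layer list had 17 of 28 genes rising and 4 falling (median log2 fold change 2.33). Rises and falls made up 60.7 and 14.3% of it, against 30.5 and 40.9% of all genes tested. anxa1b, which encodes an annexin, went from 84.4 ± 23.5 to 2424 ± 172 (log2 fold change 4.87, adjusted p = 4.0e-12). cldne, a claudin of this layer, did not pass, at 8884 ± 329 against 5828 ± 349 (log2 fold change 0.61). The members of the list therefore did not move as one. In the yolk syncytial layer list 15 of 22 rose and 4 fell, or 68.2 and 18.2% (their share of counts is given above). The apolipoprotein gene apoa1a had 340.0, 340.3, 284 and 314 and 3918, 3543, 4169 and 4161 normalized counts (log2 fold change 3.62, adjusted p = 1.8e-14), and mxtx2, a homeobox gene that specifies this layer, had at most 1.13 in control libraries and 6.25 ± 3.63 after knockdown. A second gene under the symbol afp4 (ENSDARG00000095863) rose from 1413 ± 61.8 to 17247 ± 1379.6. The other gene under that symbol is not given here. stm, the starmaker gene of otoliths, which the list also holds, fell from 20797 ± 2046 to 4481 ± 227 (log2 fold change -2.21, adjusted p = 5.6e-13).

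Of the 43 lists, that of epidermal and ventral ectoderm genes had the largest share of rises, 12 of 14 with 0 falls (median log2 fold change 4.16). Rises made up 85.7% of it, against 30.5% of all genes tested. ved, a ventral homeobox repressor, had 12.95, 9.16, 12.4 and 10.7 normalized counts in control clusters and 2878, 2391, 2976 and 2924 after knockdown (log2 fold change 7.83 with a standard error of 0.11, adjusted p = 3.5e-15). Its relative vox rose from 711 ± 79.9 to 5057 ± 143 (log2 fold change 2.83) and was at a like level, 5295 ± 38.3, after Yap/Taz knockdown. tfap2a and foxi1, transcription factors of the non-neural ectoderm, went from 59.4 ± 5.50 to 1780.3 ± 123 and from 54.6 ± 14.6 to 903 ± 80.0. tp63, the defining factor of epidermal precursors, did not pass and was slightly lower, at 246 ± 10.2 against 293 ± 44.8 (log2 fold change -0.24, adjusted p = 0.081). This marker was thus present in both groups, while ved, tfap2a and foxi1 rose.

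**Figure D3:**
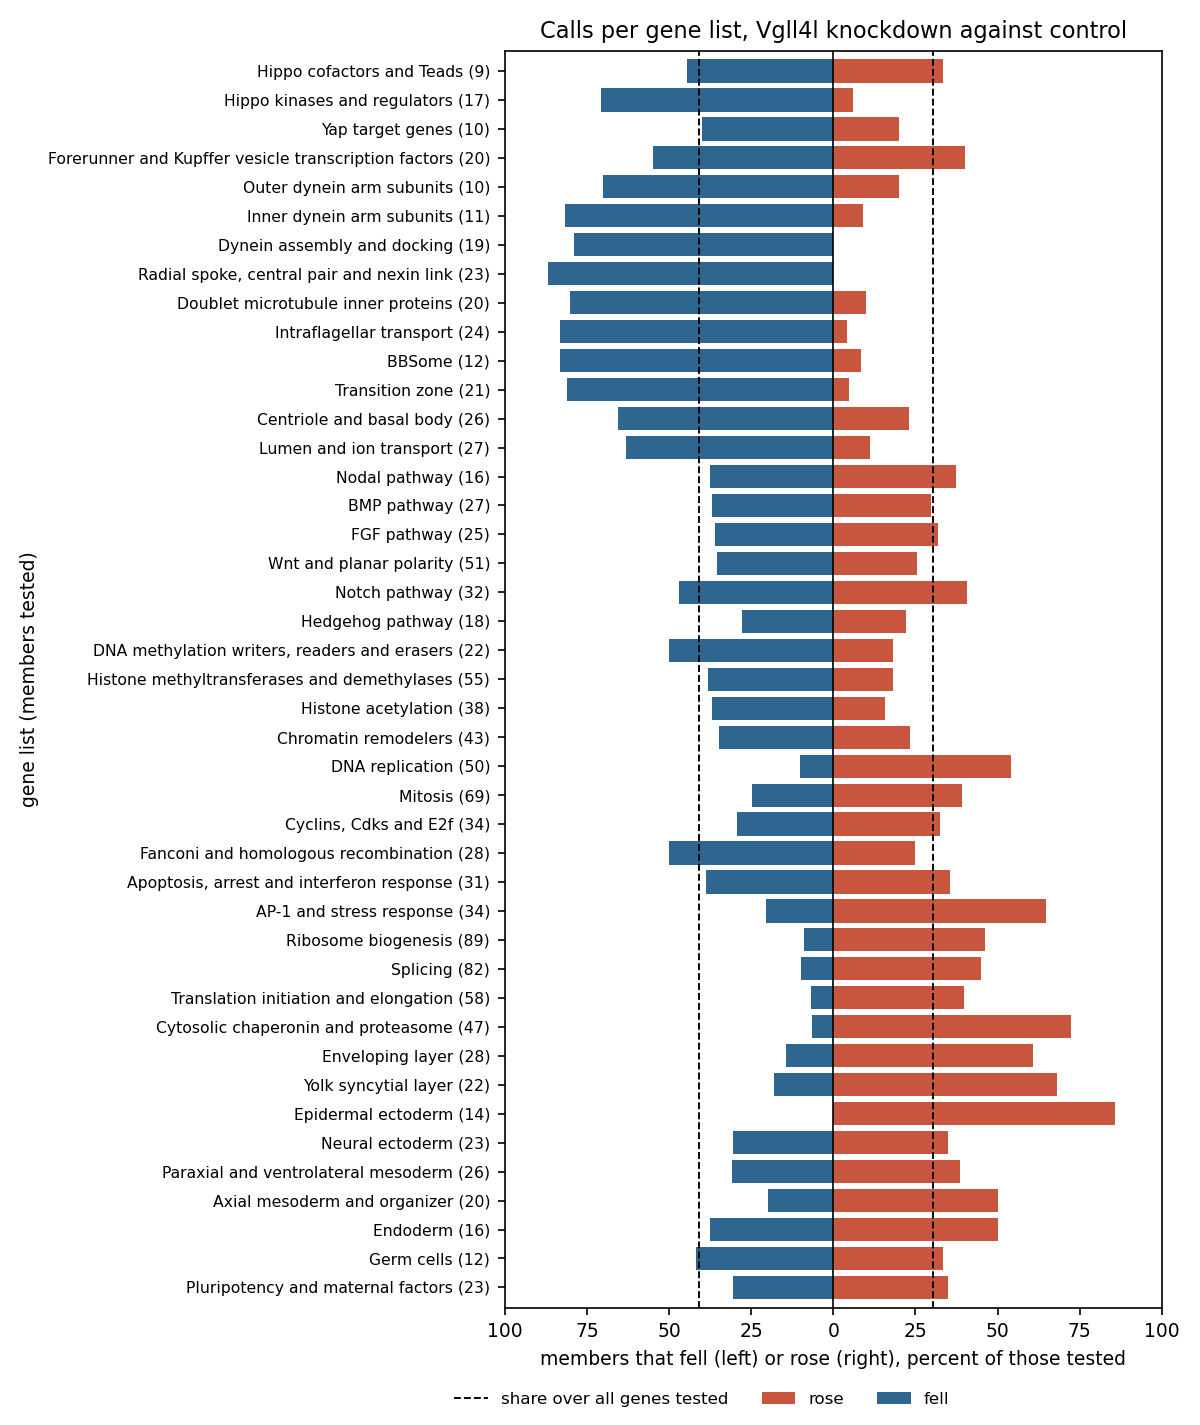
Bars give, for each of 43 gene lists, the percent of tested members that fell (left) and rose (right) after Vgll4l knockdown, and dashed lines the shares over all 17609 genes (40.9 and 30.5%). Ciliary lists reach 65.4 to 87.0% fallen, while the chaperonin and proteasome list reaches 72.3% and the epidermal list 85.7% risen.

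Signalling pathways had no common direction, and which direction held the majority of BMP, FGF, Nodal and Hedgehog members changed with the scaling of the libraries. Of 27 BMP pathway genes 8 rose and 10 fell (10 and 8 with TMM scaling), or 29.6 and 37.0% against 30.5 and 40.9% of all genes tested. bambia, which encodes a decoy receptor that BMP signalling induces, had 3.24, 7.63, 11.3 and 10.7 normalized counts in control clusters and 1105, 957, 1119.8 and 1157 after knockdown (log2 fold change 6.99, adjusted p = 2.6e-11). admp, a BMP ligand of the organizer, rose from 14.6, 9.16, 11.3 and 16.6 to 901, 823, 981 and 911 (log2 fold change 6.05, adjusted p = 3.6e-10). The BMP antagonist gene nog3 and the inhibitory Smad gene smad6b went the other way, from 271 ± 30.4 to 2.58 ± 2.96 and from 216 ± 39.8 to 0.944 ± 1.89. id1, a BMP target at a high level, stayed under the threshold at 6557 ± 419 against 8574 ± 338 (log2 fold change -0.39).

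Of 16 Nodal pathway genes 6 rose and 6 fell (7 and 6 with TMM scaling), the ligand genes among them in both directions. Both shares were 37.5%, against 30.5 and 40.9% of all genes tested. ndr1, a Nodal ligand of the early gastrula, had 502, 525, 514 and 546 normalized counts in control clusters and 3.06, 13.2, 3.91 and 3.69 after knockdown (log2 fold change -6.44, adjusted p = 1.6e-10). gdf3, the ligand that pairs with Nodals, rose from 199, 151, 183 and 155 to 2888, 2492, 3011 and 2945 (log2 fold change 4.04, adjusted p = 2.4e-13). The Lefty genes, feedback inhibitors that Nodal induces, both rose, lft1 from 48.1 ± 7.41 to 338 ± 45.04 and lft2 from 1.24 ± 0.940 to 444 ± 41.5. lft2 was at 0.699 ± 0.944 after Yap/Taz knockdown, so that the difference, Vgll4l minus Yap/Taz, was 8.18 in log2 units (adjusted p = 3.1e-10). foxh1, a DNA-binding partner of the pathway's Smads, rose from 14.2 ± 9.01 to 209.6 ± 21.3, and acvr1ba, an Activin-type receptor gene, fell from 4282 ± 354 to 1337 ± 95.4.

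Of 25 FGF pathway genes 8 rose and 9 fell (9 and 6 with TMM scaling), or 32 and 36%. Ligand genes went both ways. fgf1a had 539, 581, 441 and 401 normalized counts in control clusters and was at 0 in 3 Vgll4l libraries and at 7.55 in replicate 2. fgf24, a ligand of the posterior mesoderm, rose from 11.3, 18.3, 25.9 and 16.6 to 656, 478, 699 and 615 (log2 fold change 5.05, adjusted p = 8.1e-11). fgf3 was at 3.55 in control replicate 4 and at 0 in the other 3 control libraries, and at 61.4 ± 12.3 after knockdown. Of 51 Wnt and planar polarity genes 13 rose and 18 fell (25.5 and 35.3%, against 30.5 and 40.9% of all genes tested). ctnnb1, one of the beta-catenin genes, rose from 189, 188, 202 and 149 to 2719, 1933, 2990.1 and 3101 (log2 fold change 3.86, adjusted p = 6.3e-12). dkk1b, a secreted Wnt inhibitor, went from 1.26 ± 0.984 to 487 ± 65.8. The receptor gene fzd8a fell from 630.3 ± 40.6 to 16.01 ± 7.70 and dvl1b, a Dishevelled gene, from 138 ± 33.6 to 0.716 ± 0.907. sp5l, a Wnt target in the gastrula, was lower at 5293 ± 289.5 against 9932 ± 287, a log2 fold change of -0.91 that passed 1 only when libraries were scaled to their total reads.

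Notch pathway genes split as well, with 13 of 32 rising and 15 falling (40.6 and 46.9%, against 30.5 and 40.9% of all genes tested). The ligand gene dll4 had 1.62, 6.10, 1.13 and 0 normalized counts in control clusters and 766, 509.8, 850.1 and 901 after knockdown (log2 fold change 8.21, adjusted p = 1.3e-09), with replicate 2 the lowest of the knockdown libraries. lfng and rfng, 2 Fringe genes whose enzymes put sugars on Notch, fell from 5208 ± 344 to 888 ± 24.2 and from 645 ± 91.4 to 3.21 ± 4.83. Of 18 Hedgehog genes 4 rose and 5 fell (4 and 4 with TMM scaling), or 22.2 and 27.8%, both below the shares over all genes. gli3, a transcription factor of the pathway, had 1096, 1103, 959 and 983 and 1.53, 11.3, 0 and 1.84 (log2 fold change -8.40, adjusted p = 3.0e-09). gli2a, of the same family, rose from 29.1, 13.7, 20.3 and 10.7 to 128, 117, 167 and 151 (log2 fold change 2.95, adjusted p = 5.3e-08).

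Families of transcription factors that pattern the trunk rose from low levels. Of 33 hox genes tested 25 rose and 6 fell (median log2 fold change 4.08), the same counts as under TMM and total read scaling and without Vgll4l replicate 2. Over all genes tested 30.5% rose and 40.9% fell. Their share of counts went from 0.0248 to 0.0293% of a control library to 0.118 to 0.132% of a Vgll4l library. hoxb5b had 6.48, 6.10, 3.38 and 3.55 normalized counts in control clusters and 1141, 955, 1272 and 1288 after knockdown (log2 fold change 7.66, adjusted p = 1.1e-11). hoxb13a, of the posterior end of its cluster, had no read in any control library and 293, 228, 286 and 319 in the Vgll4l libraries, at least 275-fold higher taking 3 reads over the 4 control libraries as the floor. hoxc6a rose from 22.7, 36.6, 28.2 and 45.00 to 1044, 888, 1128 and 1063. Neither hoxb5b nor hoxb13a rose after Yap/Taz knockdown, with 1.31 ± 0.808 normalized counts and with 0 in all 4 libraries. The falling members included hoxb3a, from 542 ± 52.2 to 220.0 ± 9.33, and hoxc11b, from 66.1 ± 7.11 to 0.899 ± 1.34. These hox genes, like the her genes below, were chosen as examples after their values were seen. The filter took the mean over all 12 libraries, so a hox or her gene near 0 in control clusters was tested only where another group was higher. Such a gene could not be called a fall, so the filter partly set the counts of rises and the medians of these families.

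Of 20 her and hey genes, repressors that act downstream of Notch and in the segmentation clock, 15 rose and 3 fell (median log2 fold change 2.81, with 15 and 2 under TMM scaling). her11 had 0, 3.05, 1.13 and 2.37 normalized counts in control clusters and 368, 338, 422 and 443 after knockdown (log2 fold change 7.40, adjusted p = 9.6e-11). her15.2 went from 3.24, 3.05, 0 and 2.37 to 498, 439, 492 and 521 and her1, an oscillating gene of the presomitic mesoderm, from 285, 305, 317 and 279 to 1242, 1073, 1428 and 1291. her15.2 has near-identical neighbours in the genome, and the division of reads among them is uncertain. her3, one of those that fell, had 162 ± 15.3 and 72.1 ± 14.4 (log2 fold change -1.17, adjusted p = 1.9e-06), or -0.98 and under the threshold with TMM scaling. In the paraxial and ventrolateral mesoderm list, which holds tbx6, 10 of 26 genes rose and 8 fell (38.5 and 30.8%, against 30.5 and 40.9% of all genes). The share of that list was 0.176 to 0.197% in control libraries and 0.146 to 0.152% in Vgll4l libraries, and tbx16, one of its genes, fell.

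**Figure D4:**
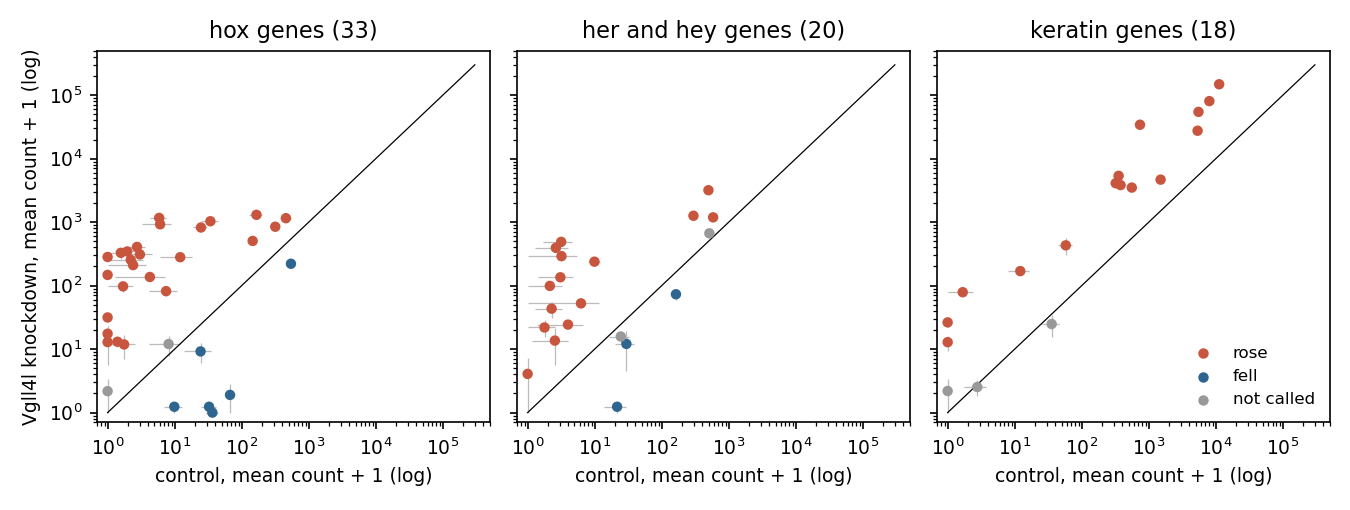
Each point is 1 gene of the hox, her and hey, or keratin family, with the control mean + 1 on the x axis and the Vgll4l mean + 1 on the y axis (both log), SD over 4 libraries as grey bars, and the line of equal counts. Most points lie above the line, 25 of 33 hox, 15 of 20 her and hey and 15 of 18 keratin genes being called as rises.

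Of 22 genes of DNA methylation 11 fell and 4 rose (50 and 18.2%, against 40.9 and 30.5% of all genes tested), with a median log2 fold change of -0.94. dnmt3bb.1, a de novo methyltransferase, had 1676, 1750.2, 1542 and 1561 normalized counts in control clusters and 26.0, 101, 42.0 and 26.7 after Vgll4l knockdown, 3.00% of the control mean (log2 fold change -5.26, adjusted p = 1.2e-09). It kept 1518 ± 47.6 after Yap/Taz knockdown, and the difference, Vgll4l minus Yap/Taz, was -5.16 in log2 units (adjusted p = 1.9e-09). dnmt3bb.2, its neighbour in the family, had 5082, 4996, 4618 and 4635 and 834, 1066, 817 and 771 (log2 fold change -2.48, adjusted p = 3.5e-12). Both lay below every control library in all 4 Vgll4l libraries, as did 44.2% of all genes tested. tet2, which encodes an enzyme that oxidizes methylcytosine, fell even further, from 1833, 1897, 1302 and 1419 to 2.29, 18.9, 0.977 and 2.76 (log2 fold change -8.41, adjusted p = 2.5e-09). gadd45bb, a stress gene also listed for demethylation, rose from 94.4 ± 14.3 to 2179.5 ± 109.6 (log2 fold change 4.53, adjusted p = 7.5e-14).

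Chromatin modifiers were called in both directions. Of 55 histone methyltransferases and demethylases 10 rose and 21 fell, of 38 genes of histone acetylation 6 rose and 14 fell, and of 43 remodelers 10 rose and 15 fell (11 and 10 with TMM scaling), 56.4, 52.6 and 58.1% of members against 71.4% of all genes. The paired genes suv420h1 and suv420h2, which encode methyltransferases of histone H4 lysine, went in opposite directions. suv420h1 had 941, 938, 836 and 851 normalized counts in control clusters and 52.7, 103, 35.2 and 40.5 after knockdown, and suv420h2 had 37.2, 25.9, 44.0 and 40.3 and 559, 514, 511 and 547 (log2 fold changes -4.05 and 3.84). eed, a core subunit of Polycomb repressive complex 2, rose from 85.8, 107, 105 and 111 to 779, 547, 770.0 and 754 (log2 fold change 2.78, adjusted p = 3.9e-11), and kat2a, a Gcn5-type acetyltransferase gene, from 4.54 ± 4.02 to 335 ± 34.8. setd7, a lysine methyltransferase gene, rose from 9.78 ± 3.597 to 423 ± 81.2. arid1ab, which encodes a subunit of the SWI/SNF complex, had 665, 723, 543 and 510.4 in control libraries and 1.53, 8.50, 1.95 and 0 in Vgll4l libraries (log2 fold change -7.70, adjusted p = 3.1e-09). hdac1 and chd7 stayed under the threshold with log2 fold changes of 0.39 and -0.69.

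Of 50 DNA replication genes 27 rose and 5 fell (median log2 fold change 1.43). pcna, the sliding clamp of the replication fork, had 686, 720.2, 741 and 713 normalized counts in control clusters and 2486, 2355, 2416 and 2339.8 after knockdown (log2 fold change 1.75 with a standard error of 0.05, adjusted p = 6.0e-13). rpa2, a subunit of the single-strand binding complex, rose from 9.71, 4.58, 12.4 and 2.37 to 403, 317, 414 and 407, and tyms, the thymidylate synthase gene, from 0.786 ± 0.909 to 115 ± 8.22. Mitosis genes were divided, 27 rising and 17 falling of 69, and 20 each when libraries were scaled to their total reads. zw10, a kinetochore gene of the spindle checkpoint, was at 1.62 in control replicate 1 and 0 in the other control libraries and at 160.5, 139, 157 and 192 after knockdown. cenpk, a centromere gene, fell from 788, 873, 696 and 716 to 1.53, 18.9, 2.93 and 0.922 (log2 fold change -7.44, adjusted p = 7.8e-09). Of 34 cyclin, Cdk and E2f genes 11 rose and 10 fell (9 and 11 scaled to total reads), or 32.4 and 29.4% against 30.5 and 40.9% of all genes tested. ccnd1, which drives entry into the cell cycle, rose from 848 ± 59.9 to 2972 ± 103 and cdk5 fell from 209.6 ± 14.1 to 3.24 ± 3.70.

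In DNA repair by the Fanconi and homologous recombination genes, 7 of 28 rose and 14 fell (25 and 50%, against 30.5 and 40.9% of all genes tested). msh4, a meiotic mismatch-family gene of that list, had 1682, 1814, 1657 and 1586 normalized counts in control clusters and 94.0, 139, 93.8 and 116 after knockdown (log2 fold change -3.93, adjusted p = 1.8e-12). Of 31 genes of apoptosis, growth arrest and the interferon response 11 rose and 12 fell (35.5 and 38.7%, near the 30.5 and 40.9% of all genes tested). ccng1, a cyclin gene on that list, rose from 6298, 6120.4, 5438 and 5438 to 21133, 17378, 22947 and 22824 (log2 fold change 1.85, adjusted p = 3.4e-11), whereas cdkn1a, the p21 gene, had 59.9, 33.6, 47.3 and 39.1 and was at 0 in 3 Vgll4l libraries, with 1.89 in replicate 2. chek1, the checkpoint kinase gene, went from 2.19 ± 1.99 to 88.9 ± 18.1.

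Heat-shock genes rose steeply. hsp70.3 had 333, 227, 225 and 217 normalized counts in control clusters and 30764, 35143, 29700.2 and 29091 after Vgll4l knockdown, 124 times the control mean (log2 fold change 6.97 with a standard error of 0.11, adjusted p = 7.4e-15). hsp90aa1.2 had 941, 867, 870.3 and 810.0 and 34731, 33716, 34531 and 35225 (log2 fold change 5.31, adjusted p = 2.2e-17). hsp70.3 was highest in replicate 2 and hsp90aa1.2 lowest there, by a small margin. After Yap/Taz knockdown hsp70.3 had 653 ± 18.8 normalized counts, and the difference, Vgll4l minus Yap/Taz, was 5.57 in log2 units (adjusted p = 1.1e-13). dnajb1b, a cochaperone of Hsp70, rose from 4.86, 6.10, 11.3 and 11.8 to 2752, 2278, 3028 and 3005 (log2 fold change 8.26, adjusted p = 5.3e-13). It also rose after Yap/Taz knockdown, to 539 ± 15.3 (log2 fold change against control 5.91, adjusted p = 1.1e-11). hspb1, a small heat-shock gene, had the largest gain in counts of all genes tested, from 47821 ± 2055 to 234019.9 ± 10334. Yap/Taz knockdown raised it as well, to 107713 ± 1057 (log2 fold change against control 1.17, adjusted p = 8.7e-13). hspa5, the Hsp70 of the endoplasmic reticulum, rose from 239 ± 30.6 to 2396 ± 90.8 (log2 fold change 3.33). In total 22 of 34 genes of AP-1 and the stress response rose and 7 fell (median log2 fold change 1.83), and their share went from 1.39 to 1.49% to 4.36 to 4.54%. Rises and falls made up 64.7 and 20.6% of members, against 30.5 and 40.9% of all genes tested.

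Several immediate early genes on the same list fell. egr1 had 304, 269, 187 and 185 normalized counts in control clusters and 6.88, 18.9, 10.7 and 15.7 after knockdown (log2 fold change -4.13, adjusted p = 4.6e-09). fosl1a, a Fos-family gene of the AP-1 factor, went from 185 ± 15.9 to 4.39 ± 2.42, and jund, of the Jun family, from 871 ± 146 to 92.6 ± 10.0 (log2 fold changes -5.27 and -3.21). Both stayed far below their control levels in all 4 libraries.

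The chaperonin and the proteasome, which fold and degrade proteins, had 34 of 47 genes rising and 3 falling (median log2 fold change 1.54). Rises and falls made up 72.3 and 6.38% of members, against 30.5 and 40.9% of all genes tested. cct8, a subunit of the cytosolic chaperonin, had 108, 108, 115 and 77.0 normalized counts in control clusters and 2104, 1761, 2160.5 and 2168 after knockdown (log2 fold change 4.32, adjusted p = 7.4e-13). tcp1, of the same ring, rose from 1039, 957, 937 and 928 to 7159.7, 6077, 7913 and 8136 (log2 fold change 2.91), while it had 868 ± 35.8 after Yap/Taz knockdown (Vgll4l minus Yap/Taz 3.07 in log2 units, adjusted p = 7.0e-13). psmd7, a subunit of the proteasome lid, went from 2.38 ± 2.22 to 237 ± 43.9. psme2, of an activator cap, fell from 165, 185, 138 and 131 to 0.764, 0.944, 0 and 0.922 (log2 fold change -6.59, adjusted p = 2.6e-11). The 2 ring subunits thus rose by unequal folds.

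Genes of RNA processing and protein synthesis were called more often as rises than as falls. Of 89 ribosome biogenesis genes 41 rose and 8 fell, of 82 splicing genes 37 rose and 8 fell, and of 58 translation factors 23 rose and 4 fell, with median log2 fold changes of 0.83, 0.68 and 0.73 under the threshold and 55.1, 54.9 and 46.6% of members called against 71.4% of all genes. snrpd1, of the spliceosome core, had 1557, 1593, 1533 and 1564 normalized counts in control clusters and 10139, 10358, 9807 and 10386 after knockdown (log2 fold change 2.70, adjusted p = 1.6e-16). imp3, of the small subunit processome, went from 2.70 ± 1.91 to 599 ± 27.7, and npm1a, a nucleophosmin gene of the nucleolus, from 4781, 4491, 4500.4 and 4368 to 15641, 13788, 16784 and 16663 (log2 fold change 1.79). eef2b, a translation elongation factor gene, rose from 11983 ± 272 to 39175 ± 4119.9, while eef1a1l1, an elongation factor gene of the same list, was at 191007 ± 6323 against 114883 ± 2641 with a log2 fold change of 0.73 under the threshold. nat10, an RNA acetyltransferase gene of ribosome biogenesis, fell from 214 ± 21.9 to 26.2 ± 9.19.

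Of 82 cytosolic ribosomal protein genes 28 rose and 0 fell with a median log2 fold change of 0.74, but the count of rises was 36 with TMM scaling and 8 with total read scaling, so it depended on how the libraries were scaled. Mitochondrial ribosomal protein genes moved further, 45 rising and 11 falling of 76 (median log2 fold change 1.30). mrps11 rose from 12.95, 3.05, 10.1 and 5.92 to 756, 633, 702 and 781 and mrps34 fell from 349.7, 380.0, 318 and 287 to 16.05, 24.5, 11.7 and 17.5 (log2 fold changes 6.46 and -4.22). In the respiratory chain 51 of 95 nuclear genes rose and 13 fell, and of 22 genes of mitochondrial protein import 13 rose and 2 fell. Over all genes tested 30.5% rose and 40.9% fell. The 13 genes encoded in mitochondrial DNA took 4.69 to 4.85% of a control library and 6.15 to 6.37% of a Vgll4l library, with 3 called as rises, 6 with TMM scaling and 1 with total read scaling.

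Further lists of tissue markers held calls in both directions. Of 23 neural ectoderm genes 8 rose and 7 fell (34.8 and 30.4%, against 30.5 and 40.9% of all genes tested). The neural genes named next were taken for their large folds, and the factors that define neural ectoderm are not given. six3a, of the anterior neural plate, had 651, 696, 493 and 491 normalized counts in control clusters and 0.764, 9.44, 0 and 0.922 after knockdown, and sox1b had 398, 381, 326 and 319 and was at 0 in 3 Vgll4l libraries (log2 fold changes -7.88 and -7.91). irx7, an Iroquois gene, rose from 4.86, 10.7, 2.25 and 7.10 to 526, 548, 538 and 483. The neural list took 0.282 to 0.299% of a control library and 0.0881 to 0.0952% of a Vgll4l library, cdh2 making up most of it. Among paraxial and ventrolateral mesoderm genes, myod1, of the muscle lineage, rose from 1.08 ± 0.745 to 74.4 ± 6.49. The blood and endothelial factor lmo2 fell from 142 ± 17.4 to 1.85 ± 2.58, and tbx20, of the heart field, from 69.6, 88.5, 54.1 and 71.0 to 0 in all 4 libraries, at least 105-fold lower at the floor.

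In the organizer and axial mesoderm list 10 of 20 rose and 4 fell (50 and 20%, against 30.5 and 40.9% of all genes tested). gsc, the defining organizer gene, had 0.687 ± 0.818 normalized counts in control clusters and 7.04 ± 1.86 in Vgll4l clusters, and 208 ± 18.8 after Yap/Taz knockdown (Vgll4l minus Yap/Taz -4.73 in log2 units, adjusted p = 1.0e-08). lhx1a, another organizer gene, went from 1.26 ± 0.951 to 68.8 ± 9.93. Of 16 endoderm genes 8 rose and 6 fell (50 and 37.5%), with gata5 rising from 239 ± 36.5 to 746 ± 49.4. Of 12 germ cell genes 4 rose and 5 fell (33.3 and 41.7%, near the 30.5 and 40.9% of all genes tested). The list took 0.0172 to 0.0201% of a control and 0.0134 to 0.0145% of a Vgll4l library. ddx4, the vasa gene, fell from 663 ± 74.9 to 222 ± 23.0, while dazl, of the same cells, rose from 0.701 ± 0.828 to 82.2 ± 16.2. nanos3, another defining germ cell gene, was under the filter of 1 normalized count. Of 23 genes of pluripotency and the maternal store 8 rose and 7 fell (6 and 7 with total read scaling), or 34.8 and 30.4%. pou5f3 rose from 1234, 1231, 1195 and 1197 to 2800.5, 2891, 3004 and 2989 (log2 fold change 1.27, or 0.98 and under the threshold when libraries were scaled to their total reads). Whether neighbouring cells in the dissected clusters contributed to any of these levels was not tested.

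Zebrafish keep many genes as duplicates whose symbols differ only in a final a or b. Among 1328 such pairs with both members tested, both rose in 142 (10.7%), both fell in 224 (16.9%), the members were called in opposite directions in 279 (21.01%), only 1 was called in 564 (42.5%) and neither in 119 (8.96%). Multiplying the shares of rises and falls over all genes tested gives 9.29, 16.7, 24.9, 40.9 and 8.19% for these patterns, in the same order, so the counts of pairs lay near that background. A few of these pairs are subunits of a complex and not duplicates. slc38a5a and slc38a5b encode transporters of glutamine and related amino acids. slc38a5a had 3557, 3249, 2832 and 2714 normalized counts in control clusters and 27.5, 109, 27.4 and 24.9 after knockdown (log2 fold change -6.30). slc38a5b had 314, 253, 306 and 319 and 3208, 3015, 3435 and 3328 (log2 fold change 3.45). The members of this pair were thus called in opposite directions in the same libraries. Of the ppp1r15 genes, regulators of a phosphatase that reverses the stress block on translation, ppp1r15a rose from 64.8, 87.0, 81.2 and 63.9 to 1041, 918, 1165 and 1150.1 and ppp1r15b fell from 829, 877, 671 and 748 to 3.82, 10.4, 5.86 and 4.61. acsl1a and acsl1b, acyl-CoA synthetase genes, fell from 596 ± 75.3 to 4.97 ± 3.15 and rose from 283 ± 22.3 to 776 ± 26.2, respectively, and npm1b fell from 930.0 ± 21.6 to 138 ± 36.2 where npm1a rose. These pairs were chosen as examples after their values were seen.

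Genes outside the lists held several of the largest folds. Among genes with at least 200 normalized counts in the higher group, crhr1, a corticotropin-releasing hormone receptor gene, rose from 4.86, 1.53, 0 and 0 to 761, 487, 838 and 839.5 (log2 fold change 8.51, adjusted p = 5.8e-09). ttl, the tubulin tyrosine ligase gene, and ankle2, of the nuclear envelope, had no read in any control library and 305 ± 63.5 and 305 ± 42.0 normalized counts after knockdown, and both were at least 298-fold higher with the same floor of 3 reads. ptges3l, a relative of an Hsp90 cochaperone gene, rose from 45.3, 29.0, 22.5 and 20.1 to 8549.6, 7883, 8641 and 8479, and was at 14.6 ± 1.81 after Yap/Taz knockdown (Vgll4l minus Yap/Taz 9.08 in log2 units, adjusted p = 2.0e-13). ANKRD37, an ankyrin repeat gene, went from 1.25 ± 1.61 to 548 ± 116. On the falling side, HECW1, a ubiquitin ligase gene, had 542, 630.2, 519 and 439 and was at 0.764 in Vgll4l replicate 1 and at 0 in the other 3, replicate 2 included. tmem79a fell from 738, 790.4, 564 and 587 to 0, 3.78, 0.977 and 0, and slc25a13, a mitochondrial carrier of aspartate and glutamate, from 567 ± 62.1 to 1.18 ± 2.36.

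By the number of counts lost among the genes that fell, the non-coding RNA malat1 led, from 95365, 90282, 78209.8 and 75747 in control clusters to 10200.1, 10485, 10799 and 10030.0 after knockdown (12.2% of the control mean, log2 fold change -3.03, adjusted p = 3.7e-14). flrt3, which encodes a membrane protein of cell adhesion and FGF signalling, went from 15477, 15235, 13772 and 13447 to 2140.3, 2361, 2311 and 2120.4 (log2 fold change -2.70, adjusted p = 1.8e-14). foxj1a, stm, cdh2, ta, sox32 and sox17, given above, were also among the 10 named genes that lost most counts.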

How the data were processed

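RNA was sequenced from 12 libraries of dissected DFC clusters, 4 each from control, Vgll4l and Yap/Taz knockdown embryos. According to the study's methods and the submitters' processing notes, SMART-Seq v4 libraries were read as single ends of 50 bases, aligned to GRCz10 with STAR, counted over Ensembl genes with featureCounts and normalized with DESeq2, without versions. The deposited values are headed TPM, but dividing each by the smallest step of its library gave whole reads for 100% of values at a tolerance of 0.001. The authors thus deposited a signal, reads divided by 1 size factor per library, which carries no correction for gene length, so levels are not compared between genes. The same table holds the authors' log2 fold changes and their adjusted p-values for both knockdowns (4 columns), which were not used. The strand setting of the counting is not given in the sources used here.

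Genes with a mean of at least 1 over the 12 libraries (17609 of 31953) were tested with limma 3.58.1 in R 4.3.3, with an intensity trend, on log2(value + 1) in 1 fit of all 12 libraries. A call needed a Benjamini-Hochberg adjusted p under 0.05 over all genes tested and a log2 fold change of at least 1 in size. In every list and family, a gene near 0 in control clusters was tested only where another group was higher. Such a gene could not be called a fall. The test had been planned for TPM values and was kept for this signal, with count tests on the recovered reads as alternatives. A log2 fold change with the pseudocount of 1 understates the change of low genes. A group at 0 was set to a floor of 3 reads over the group, which covers counting error only. Symbols were missing or turned into dates for 13507 genes, of which 8398 were named from the RefSeq gene table by Ensembl ID and 5109 kept their ID.

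The members and the 43 gene lists were chosen with earlier results of these data known. The rule for named genes took the Tead and Vgll genes, the 10 largest rises and falls among genes with at least 200 normalized counts, the 10 largest gains and losses in counts, and per list up to 3 rises and 3 falls with at least 50 normalized counts and the member highest in control clusters. Of the 175 genes named, 52 fall outside it and were chosen after their values were seen, the hox, her and paired gene examples among them. Alternatives were other pseudocounts (0.5 and 10), filters, TMM and total read scaling, edgeR 4.0.16 and DESeq2 1.42.0 on the recovered reads, the 8 libraries alone, a replicate block, near-identical libraries averaged and each library left out in turn. Total read scaling was added after the data had been seen. On simulated data for 17609 genes the limma step found 66 of 67 genes changed by 1.5 on the log2 scale. It found 67 of 67 changed by 2 and 66 of 66 changed by 3, and it also called 8 unchanged genes, where edgeR called 3. Only 200 genes were changed in this simulation, none of them near 0 in control, and the true size factors were used. It therefore cannot show how the test does where 71.4% of genes are called, genes lie near 0 or the scaling is in doubt. Python 3.11.15 with pandas 2.3.3 and matplotlib 3.10.9 was used for summaries and plots.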

Additional observations from a re-analysis of the deposited data

Results flagged for a closer look

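In 348 sets of 4 libraries examined, 41 had a highest or lowest library that lay apart from the other 3, its gap to the nearest of them as a share of the whole range being over Dixon's critical value for 4 samples. For continuous, normally distributed values chance gives this in about 1 set in 20 (5%). Counts are not such values, since a set with reads in only 1 library is always flagged, and many genes were named for their values. The chance rate for these sets is therefore not known. Of the 41, 32 were in Vgll4l replicate 2, including its 16615 genes with a read and its 15334.1 genes expected at equal depth.

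Among genes that fell, Vgll4l replicate 2 had more normalized counts than replicates 1, 3 and 4. It held 6.61 for tead1a and for bbs2, 1.89 for wwc1, f3a and cdkn1a, 3.78 for fstb, smad6b and sox1b, and 4.72 for gmnc and slc25a13. It held 36.8 for lrrc6, 31.2 for cfap45, 22.7 for ift88, 19.8 for efhc2, 10.4 for drc3 and for rfng and 8.50 for cldn5b. It held 13.2 for ndr1, 7.55 for fgf1a, 11.3 for gli3, 18.9 for tet2 and for cenpk, 9.44 for six3a and 109 for slc38a5a. Among genes that were higher after knockdown, replicate 2 had fewer counts than the other 3 libraries, with 2391 for ved, 547 for eed, 283 for kat2a, 3888 for hdac1, 317 for rpa2 and 1761 for cct8.

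The other 9 were spread over 6 libraries. They were tead1b at 2.25, mxtx2 at 1.13 and tfap2a at 67.6 in control replicate 3, tead3a at 1.53 in control replicate 2, fgf3 at 3.55 in control replicate 4, and zw10 at 1.62 and hsp70.3 at 333 in control replicate 1. In the Vgll4l group HECW1 was at 0.764 in replicate 1 and myod1 at 84.0 in replicate 3.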

How the results depend on the processing

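The count of genes changed after Vgll4l knockdown stayed within 1.5 times its value of 12570 under every alternative run, from 9365 with a log2 threshold of 2 to 14881 with no fold threshold. Leaving out 1 library at a time gave 5303 to 5376 rises and 7128 to 7297 falls. The share of rises among the genes called was 42.7% with the deposited scaling, 45.3% with TMM and 38.7% with total reads. edgeR called 5689 rises and 6899 falls and DESeq2 5258 and 7160. Replicate numbers gave no pairing, since deviations of same-numbered control and Vgll4l libraries correlated at -0.076, 0.008, 0.003 and 0.004 over 13745 genes, and with a replicate block 5365 genes rose and 7198 fell. Control replicates 1 and 2, control replicates 3 and 4, and Vgll4l replicates 3 and 4 differed by 1.95, 1.76 and 1.99 times counting noise, and averaging such pairs gave 5161 rises and 6986 falls. Yap/Taz replicates 1 and 2, 2 and 3, and 3 and 4 differed by 1.75, 1.83 and 1.91 times, and averaging left 1 Yap/Taz value. vgll4l kept its direction and its call under every alternative. Of the genes named, no value reversed. Calls lost were wwtr1 (log2 fold change 0.30), tead3a (0.61), the vgll4a log2 fold change (-0.76), gsc (0.67) and mxtx2 (0.64) with a pseudocount of 10, sox32 (-0.89), sox17 (-0.87) and her3 (-0.98) with TMM scaling, also in edgeR at -0.89, -0.87 and -0.97, and ift46 (0.93), dynll1 (0.74) and pou5f3 (0.98) with total read scaling. sp5l was gained (-1.19) with total read scaling. The control libraries, with 4487894 to 6148871 reads, limit the levels of genes near 0.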
